A study of Homo sapiens with 3 samples.

Results

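The semaphorin family of guidance cues, its plexin and neuropilin receptors and the collapsin response mediator proteins (CRMPs) that act downstream were followed in 3 human tumour cell lines, on 1 array per line. Members were the genes whose symbol marks them as a semaphorin of classes 3 to 7, a plexin, NRP1, NRP2, CRMP1 or one of DPYSL2, DPYSL3, DPYSL4 and DPYSL5. This gave 36 of 19775 genes that have a probe set with a single symbol. The 36 genes were 20 semaphorins, 9 plexins, 2 neuropilins and 5 CRMPs. They were represented by 95 probe sets, and each gene's values are those of its brightest probe set over the 3 arrays unless another is named.

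All 3 lines derive from HT1080, an established fibrosarcoma line, and RNA was labelled with biotin and hybridised to Affymetrix expression arrays. The RECK/4NQ line was stably transfected with pZeoSV2(+) carrying RECK with 4 asparagines, the acceptors of N-linked sugar chains, replaced by glutamine. The RECK line carries the unaltered RECK in the same vector, and the Zeo line was mock-transfected. RECK is a membrane-anchored protein known to inhibit matrix metalloproteinases. All lines grew in medium with 10% FCS and 50 µg/mL Zeocin, the drug used for selection, and the labels do not say whether each line is 1 clone or a pool. With 1 array per line there is no replicate, no SD and no test. A difference between lines is given as measured, and the effect of the transfected gene cannot be told apart from other differences between lines or between arrays.

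Semaphorins are secreted or membrane-bound ligands that steer axons and also act on migrating, endothelial and tumour cells. They bind plexins, whose intracellular part switches off small GTPases of the Ras and Rap type and so loosens adhesion and reshapes actin. Most secreted class 3 semaphorins need a neuropilin to hold the ligand to a type A plexin, whereas the membrane-bound classes bind plexins directly. CRMPs are cytosolic proteins that bind tubulin and relay class 3 signals to microtubules.

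The values are MAS5 signals, a linear intensity with 1 value per probe set and array. Before ratios were taken, values under 12.2 were raised to that floor, which is the 40th percentile of the signals of probe sets other than controls. A gene was called higher or lower if the floored signals differed at least 2-fold, and where 1 array was below the floor the fold is a lower bound, given as "at least". The median signal was 17.3 for RECK/4NQ, 17.8 for RECK and 20.3 for Zeo, so the Zeo array was the brightest at its middle. The brightest of 5 RECK probe sets read 442 in RECK/4NQ, 387 in RECK and 264 in Zeo. It is of a design that may match several transcripts. The other 4 read below 27 on every array and did not share an order of lines. Of these, 1 read 11.3 in RECK/4NQ, 2.08 in RECK and 26.2 in Zeo, and another read 25.1, 17.9 and 5.64 in that order. Whether the probes lie in the transfected sequence was not examined.

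Of 9 mesenchymal markers, 7 were at or above the floor on every array, among them VIM with 10611 in RECK/4NQ, 10704 in RECK and 10307 in Zeo. PDGFRB, a growth factor receptor of mesenchymal cells, read 12.2 in RECK/4NQ, 67.3 in RECK and 22.9 in Zeo, 2.94-fold higher in RECK than in Zeo and at least 5.50-fold lower in RECK/4NQ than in RECK. S100A4 read 57.6 in RECK/4NQ, 117 in RECK and 94.4 in Zeo, 2.02-fold lower in RECK/4NQ than in RECK. The order of lines for PDGFRB and S100A4 was that of CRMP1, and their part in the results was not tested. Of 7 epithelial markers, 0 were at the floor on every array. On all 3 arrays 4 were below it, among them EPCAM with 1.52 in RECK/4NQ, 3.60 in RECK and 0.68 in Zeo. CLDN3 read 41.9 in RECK/4NQ, 5.29 in RECK and 36.2 in Zeo. It was at least 2.96-fold lower in RECK than in Zeo and at least 3.43-fold higher in RECK/4NQ than in RECK. KRT14 read 16.7 in RECK/4NQ, 19.8 in RECK and 6.75 in Zeo, and CDH1 read 15.6, 7.75 and 0.95 in that order. CDH5 and TEK, which define endothelial cells, were below the floor on all 3 arrays. Summed over 6 endothelial markers the signal was 110 in RECK/4NQ, 126 in RECK and 137 in Zeo, and PECAM1 was the only one at the floor everywhere. Of 4 leukocyte markers with a probe set, 1 was at the floor on every array, and their sum was 89.1 in RECK/4NQ, 55.4 in RECK and 101 in Zeo. ITGAM read 42.7 in RECK/4NQ, 12.1 in RECK and 32.6 in Zeo. It was at least 2.66-fold lower in RECK than in Zeo and at least 3.49-fold higher in RECK/4NQ than in RECK. Of 7 neuronal and glial markers, 5 were at the floor on every array, and their sum was 471 in RECK/4NQ, 304 in RECK and 620 in Zeo. GAD1, which makes the transmitter GABA, read 294 in RECK/4NQ, 131 in RECK and 370 in Zeo. It was 2.82-fold lower in RECK than in Zeo and 2.24-fold higher in RECK/4NQ than in RECK. GFAP read 2.86 in RECK/4NQ, 9.02 in RECK and 26.3 in Zeo, at least 2.15-fold lower in each transfected line than in Zeo. Several members are known from neurons too, and the part of these markers in the results was not tested.

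**Figure D1:**
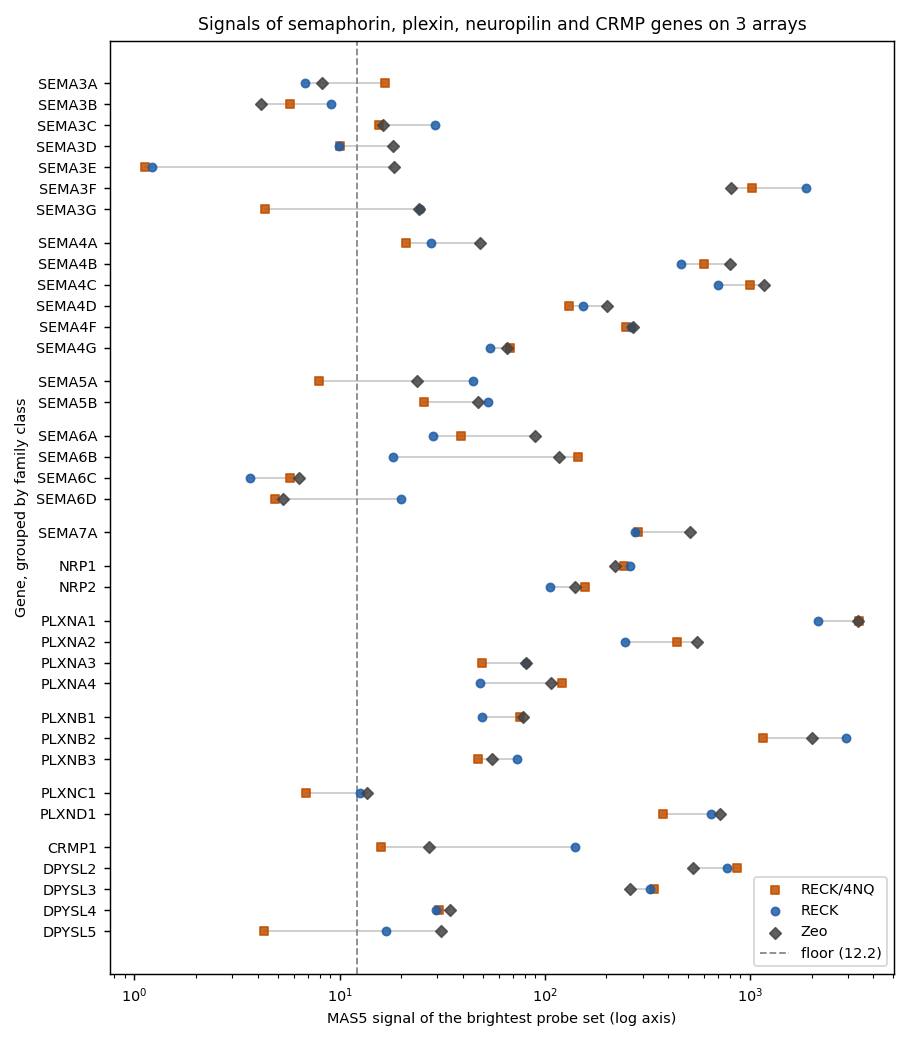
MAS5 signal of the brightest probe set of each of the 36 genes (log scale) on the RECK/4NQ, RECK and Zeo arrays, 1 point per array, with the floor of 12.2 drawn as a line. CRMP1 is higher on the RECK array (139.8) than on the other arrays, and SEMA6B lower (18.2).

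Of the 36 genes, 26 reached the floor on all 3 arrays, 4 on 2 arrays, 4 on 1 array and 2 on none. The 2 below it everywhere were SEMA3B and SEMA6C. In all, 12 of the 36 genes passed 2-fold in at least 1 of the 3 comparisons, which made 16 calls because some passed in several. That is 33.3% of members, against 19.9% of all genes, and 26 of 36 members reached the floor on every array, against 12411 of 19775 genes. CRMP1, SEMA3F, PLXNA2, PLXNA4, SEMA6A and SEMA6B passed in RECK over Zeo. Promoter sequences of 4 of these 6, from RefSeq, are shown so that genes whose signal differed between RECK and Zeo can be compared in sequence as well. Each run holds the 250 bases before the most upstream start in the table, on the gene's strand, 5′ to 3′, from GRCh38.p14. Capitals mark the letters GGGCGG or their reverse complement, the core of a GC box, which Sp-family factors bind. The runs lie at chr4:5893087-5893336 (CRMP1, minus strand), chr3:50154808-50155057 (SEMA3F, plus strand), chr1:208244385-208244634 (PLXNA2, minus strand) and chr7:132576471-132576720 (PLXNA4, minus strand).

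CRMP1: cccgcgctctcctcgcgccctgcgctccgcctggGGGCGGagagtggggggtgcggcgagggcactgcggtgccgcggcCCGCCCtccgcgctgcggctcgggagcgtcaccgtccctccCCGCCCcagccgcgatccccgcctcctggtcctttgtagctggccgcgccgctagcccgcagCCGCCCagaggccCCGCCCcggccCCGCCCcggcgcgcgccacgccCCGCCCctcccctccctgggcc
SEMA3F: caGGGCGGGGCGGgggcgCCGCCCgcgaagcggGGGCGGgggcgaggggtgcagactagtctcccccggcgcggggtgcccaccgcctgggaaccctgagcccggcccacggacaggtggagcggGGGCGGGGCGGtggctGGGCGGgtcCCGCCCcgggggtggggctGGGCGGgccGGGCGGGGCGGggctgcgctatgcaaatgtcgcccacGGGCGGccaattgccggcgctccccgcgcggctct
PLXNA2: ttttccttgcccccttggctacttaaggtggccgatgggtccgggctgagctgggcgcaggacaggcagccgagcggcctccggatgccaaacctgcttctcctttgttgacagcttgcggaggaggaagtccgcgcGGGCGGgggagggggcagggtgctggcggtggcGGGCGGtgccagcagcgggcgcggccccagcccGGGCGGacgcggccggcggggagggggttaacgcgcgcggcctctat
PLXNA4: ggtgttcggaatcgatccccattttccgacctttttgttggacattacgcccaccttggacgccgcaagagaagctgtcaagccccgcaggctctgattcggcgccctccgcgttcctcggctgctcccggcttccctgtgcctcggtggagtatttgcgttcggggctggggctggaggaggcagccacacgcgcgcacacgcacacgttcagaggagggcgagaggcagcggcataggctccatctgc

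The run of CRMP1 held 7 such motifs, the nearest beginning 22 bases before the start, and 82.8% of its bases were G or C. That of SEMA3F held 12, some overlapping, with 82.0% G or C. That of PLXNA2 held 3 and that of PLXNA4 held 0. Over 57 promoters of the 31 family genes in the table, 64.9% held GGGCGG on either strand, against 42.6% of the 35116 promoters of all genes. TATAAA, searched on both strands, stood in 1 of the 57 (1.75%), against 10.7% of all promoters. CACGTG stood in 7.02% of the family's promoters, against 6.34% of all, and TGACGTCA in 3.51%, against 1.65%. TGACTCA stood in 0 of the 57, against 4.20% of all. The median share of G and C was 67.2% over the family's promoters and 58.0% over all. A gene can have several promoters in the table, so these are not independent, and a match is a description of letters.

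Comparing RECK/4NQ with Zeo, 0 of the 36 genes were higher and 3 (8.33%) were lower. Over all genes, 2.82% were higher and 7.14% were lower. DPYSL5, SEMA4A and SEMA6A were the 3 lower genes, and 3 further genes were below the floor on both arrays. In RECK over Zeo, 2 genes (5.56%) were higher and 4 (11.1%) were lower, where 4.03% of all genes were higher and 6.71% were lower. CRMP1 and SEMA3F were higher, and PLXNA2, PLXNA4, SEMA6A and SEMA6B were lower. Between RECK/4NQ and RECK, 2 genes (5.56%) were higher and 5 (13.9%) were lower, where 4.48% of all genes were higher and 5.77% were lower. PLXNA4 and SEMA6B were higher, and CRMP1, PLXNB2, SEMA3G, SEMA5A and SEMA5B were lower. At the background shares, 36 genes would hold 2.42 lower in RECK over Zeo and 2.08 lower in RECK/4NQ over RECK, against the 4 and 5 found. Nothing is read about the family as a whole from counts this small, and what follows describes single genes. With each array centred on its median, PLXNA2 and PLXNA4 no longer passed 2-fold in RECK over Zeo, and SEMA4A and SEMA6A no longer passed in RECK/4NQ over Zeo. With the floor raised to 27.8, the 60th percentile, the calls on DPYSL5, SEMA3G, SEMA4A, SEMA5A and SEMA5B were lost. The comparisons share arrays: a gene that is low on the RECK array is low in RECK over Zeo and high in RECK/4NQ over RECK.

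The median log2 ratio over the 29 members whose mean log2 signal reached the floor was -0.23 in RECK/4NQ over Zeo, against -0.12 over all 14289 genes at that level. It was -0.22 in RECK over Zeo, against -0.20 over all genes. The median of RECK/4NQ over RECK was -0.07, against 0.06 over all genes. Of the 29, 12, 14 and 11 lay above the median of all genes in these 3 comparisons, in that order.

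**Figure D2:**
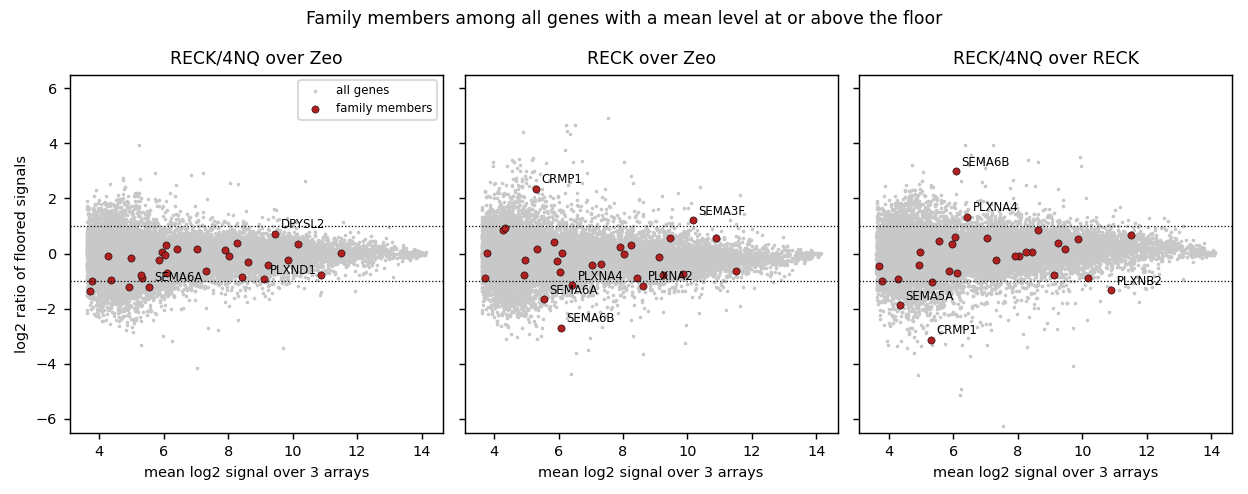
Log2 ratio of floored signals against mean log2 signal for all genes at or above the floor (grey) and the members (coloured), in the 3 comparisons, with dotted lines at 2-fold. Most members lie within the cloud of all genes, and CRMP1 (2.36) and SEMA6B (-2.69) lie toward its edges in RECK over Zeo.

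The spread of ratios is wide at low signal, so each ratio of a member was also set against the ratios of the 1000 genes nearest to it in level. The distance is given in spreads, the median absolute deviation of those ratios scaled to match an SD, measured from their median. This scale holds real differences between lines as well as noise. Of the 26 members measured on every array, 4 lay over 2 spreads away in RECK/4NQ over Zeo, 7 in RECK over Zeo and 6 in RECK/4NQ over RECK. These are 15.4%, 26.9% and 23.1% of the 26, against 6.55%, 7.61% and 7.34% of the 12411 genes measured on every array. Over 3 spreads lay 0, 3 and 4 members in the same order, against 1.39%, 2.32% and 1.96% of those genes. The comparisons share arrays and the members were proposed with earlier results known, so these shares are a description. The 3 in RECK over Zeo were SEMA6B, CRMP1 and SEMA3F, and PLXNB2 joined them in RECK/4NQ over RECK.

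**Figure D3:**
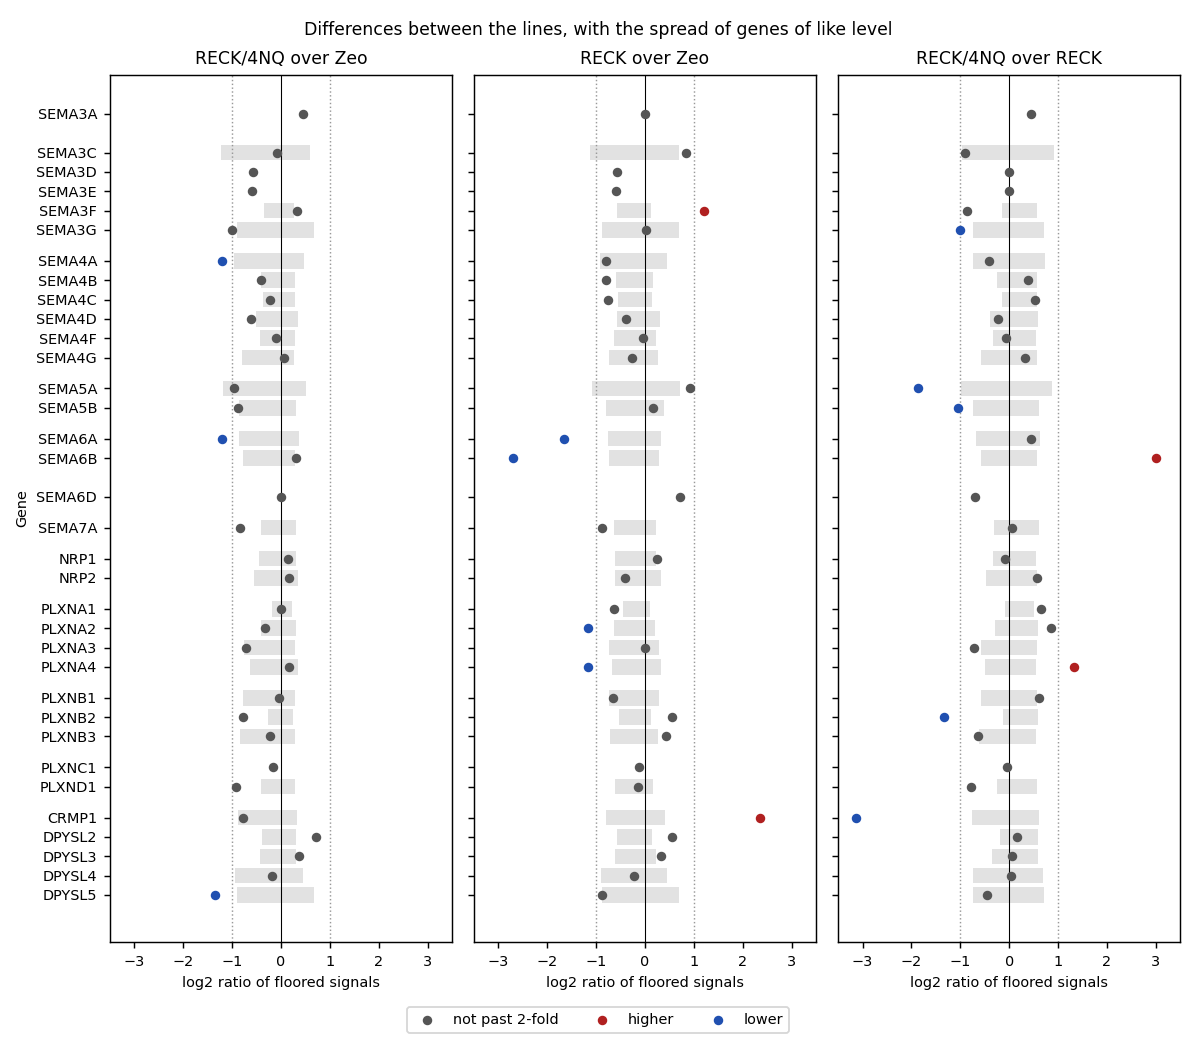
Log2 ratio of floored signals of the 34 members at or above the floor on at least 1 array, in the 3 comparisons, coloured by the 2-fold call, with grey bars for 1 spread either side of the median of the 1000 genes nearest in level. CRMP1 and SEMA6B lie far outside their grey bars in both comparisons that use the RECK array, and most other points are within or near theirs.

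Among the secreted class 3 ligands, SEMA3F read higher in RECK than in both other lines. SEMA3F is a ligand of NRP2 that repels axons and is known to restrain tumour vessels. Its signal was 1023 in RECK/4NQ and 1871 in RECK, against 813 in Zeo. RECK was 2.30-fold above Zeo (log2 ratio 1.20, 4.12 spreads), and RECK/4NQ was within 2-fold of Zeo (log2 ratio 0.33). RECK/4NQ over RECK gave a log2 ratio of -0.87, short of 2-fold, at -3.00 spreads. All 3 probe sets of SEMA3F read higher in RECK than in Zeo. The second read 121 in RECK/4NQ and 137 in RECK, against 74.7 in Zeo, and the third read 36.8 in RECK/4NQ and 90.9 in RECK, against 50.5 in Zeo.

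SEMA3G, a ligand of NRP2 made by endothelial cells, was near the floor. It read 4.34 in RECK/4NQ, 24.6 in RECK and 24.4 in Zeo. It was at least 2.01-fold lower in RECK/4NQ than in RECK, and at the same floor at least 2.00-fold lower than in Zeo, where the unrounded fold misses 2. SEMA3C, which is known in heart outflow tract development, read 15.5 in RECK/4NQ, 29.3 in RECK and 16.3 in Zeo. Its log2 ratio of RECK over Zeo was 0.84, short of 2-fold, and its second probe set went the other way.

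The remaining class 3 genes were below the floor on at least 2 arrays. SEMA3A, the prototype axon repellent that binds NRP1, read 16.7 in RECK/4NQ, 6.78 in RECK and 8.20 in Zeo. SEMA3D read 10.0 in RECK/4NQ, 9.97 in RECK and 18.2 in Zeo. SEMA3E, which binds PLXND1 without a neuropilin, read 1.13 in RECK/4NQ, 1.22 in RECK and 18.5 in Zeo. SEMA3D and SEMA3E were thus at the floor on the Zeo array alone, too close to it to pass 2-fold, and their differences are of little weight. SEMA3B was below the floor on every array, with 5.72 in RECK/4NQ, 9.11 in RECK and 4.15 in Zeo.

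The class 4 semaphorins are membrane-bound ligands, mostly of type B plexins. In at least 1 comparison 1 of the 6 passed 2-fold, as did 19.9% of all genes. SEMA4A, known as a costimulator of T cells, read 21.0 in RECK/4NQ, 28.0 in RECK and 48.5 in Zeo. It was 2.31-fold lower in RECK/4NQ than in Zeo (-1.35 spreads). Its other probe set read 29.5 in RECK/4NQ, 18.1 in RECK and 14.3 in Zeo, which is the opposite order of lines. The call on SEMA4A therefore rests on 1 of its 2 probe sets.

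SEMA4C, a ligand of PLXNB2, read 1002 in RECK/4NQ, 698 in RECK and 1176 in Zeo, a log2 ratio of -0.75 in RECK over Zeo. Its dimmer probe set read 60.1 in RECK/4NQ, 25.4 in RECK and 159 in Zeo, a log2 ratio of -2.65 in the same comparison. Both probe sets were lowest in RECK and highest in Zeo, but only the dimmer one passed 2-fold. SEMA4B read 599 in RECK/4NQ, 459.7 in RECK and 798 in Zeo. The order of lines was the same as for SEMA4C, and the log2 ratio of RECK over Zeo was -0.80.

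SEMA4D, the ligand of PLXNB1, read 131 in RECK/4NQ, 154 in RECK and 202 in Zeo. SEMA4F read 249.9 in RECK/4NQ, 263 in RECK and 269 in Zeo, and SEMA4G read 68.1 in RECK/4NQ, 54.2 in RECK and 65.2 in Zeo. The 6 class 4 log2 ratios of RECK over Zeo lay between -0.80 and -0.03, and 5 of the 6 were below the median of all genes, -0.20. SEMA4F (0.59) and SEMA4A (0.35) each had a dimmer probe set above 0.

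Class 5 semaphorins carry thrombospondin repeats, and both were called lower in RECK/4NQ than in RECK, as were 5.77% of all genes. SEMA5A, a ligand of PLXNB3, read 7.96 in RECK/4NQ, 44.9 in RECK and 23.9 in Zeo. It was at least 3.67-fold lower in RECK/4NQ than in RECK, and RECK over Zeo gave a log2 ratio of 0.91. The other probe sets of SEMA5A read 9.82 and 3.00 in RECK/4NQ, 22.0 and 30.8 in RECK, and 6.87 and 3.61 in Zeo. All 3 probe sets were thus highest in RECK, the line in which alone all 3 were above the floor. SEMA5B, with 1 probe set, read 25.8 in RECK/4NQ, 53.2 in RECK and 47.4 in Zeo, which is 2.06-fold lower in RECK/4NQ than in RECK (-1.46 spreads).

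The class 6 semaphorins are membrane-bound ligands of type A plexins. Of the 4, 2 were called lower in RECK than in Zeo, as were 6.71% of all genes. SEMA6B, a ligand of PLXNA4, read 145 in RECK/4NQ and 18.2 in RECK, against 118 in Zeo. RECK was 6.46-fold below Zeo (log2 ratio -2.69, -4.89 spreads), and RECK/4NQ was 7.96-fold above RECK (2.99, 5.25 spreads). RECK/4NQ and Zeo differed by a log2 ratio of 0.30, and by -0.91 and -0.09 on the other probe sets. The other probe sets of SEMA6B were also lowest in RECK, by less. One read 55.0 in RECK/4NQ, 33.9 in RECK and 103 in Zeo, and the other read 61.1 in RECK/4NQ, 42.9 in RECK and 64.9 in Zeo. The log2 ratio of RECK over Zeo was -1.60 and -0.60 on these, so the size of the SEMA6B difference varied with the probe set. With the mean of all probe sets, RECK/4NQ over RECK was 1.40 and RECK over Zeo -1.63, and at the 60th-percentile floor they were 2.39 and -2.09.

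SEMA6A, which binds PLXNA2 and PLXNA4, was high on the Zeo array. It read 39.1 in RECK/4NQ and 28.7 in RECK, against 89.9 in Zeo. RECK/4NQ was 2.30-fold and RECK 3.14-fold below Zeo (-1.55 and -2.66 spreads). The second probe set of SEMA6A read 42.3 in RECK/4NQ, 29.7 in RECK and 50.3 in Zeo, which keeps the order of lines within 2-fold, and its other 3 probe sets were below the floor on every array. SEMA6D, a ligand of PLXNA1, read 4.83 in RECK/4NQ, 19.96 in RECK and 5.32 in Zeo, so it was above the floor in RECK alone. The probe sets of SEMA6D did not share this order: of 4 measured in RECK over Zeo, 2 were above 0 and 2 below. SEMA6C read 5.74 in RECK/4NQ, 3.67 in RECK and 6.32 in Zeo.

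SEMA7A, the membrane-anchored class 7 ligand that binds PLXNC1 and integrins, read 287 in RECK/4NQ, 276 in RECK and 512 in Zeo. It was lower in both transfected lines without passing 2-fold, at log2 ratios of -0.84 (-2.20 spreads) in RECK/4NQ over Zeo and -0.89 (-1.61 spreads) in RECK over Zeo. Its second probe set was also highest in Zeo, with 36.6 in RECK/4NQ, 49.1 in RECK and 65.8 in Zeo.

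The neuropilins, the ligand-binding co-receptors, stayed within 2-fold on their brightest probe sets. NRP1, the co-receptor for SEMA3A and VEGFA, read 244 in RECK/4NQ, 261 in RECK and 221 in Zeo. NRP2, the co-receptor for SEMA3F, read 157 in RECK/4NQ, 106 in RECK and 140.2 in Zeo. NRP2 has 11 probe sets, the most of any member, and all 11 read higher in RECK/4NQ than in RECK. Their log2 ratios ran from 0.14 to 2.11 with a median of 0.73. Of the 11, 10 were above 0 in RECK/4NQ over Zeo, and in RECK over Zeo 4 of the 11 were. NRP2 probe sets past 2-fold were 2 of the 11 in RECK/4NQ over Zeo, both higher (2.35-fold and 2.10-fold), 1 in RECK over Zeo, at least 3.73-fold lower, and that same one in RECK/4NQ over RECK, at least 4.33-fold higher. Probe sets of 1 gene read the same RNA on the same arrays and are not replicates.

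Type A plexins are the signalling receptors for class 3 and class 6 ligands. Of the 4, PLXNA2 and PLXNA4 were called lower in RECK than in Zeo, as were 6.71% of all genes. Neither passed 2-fold there with each array centred on its median. PLXNA2, a receptor for SEMA6A, read 443 in RECK/4NQ and 245 in RECK, against 553 in Zeo, which is 2.26-fold lower in RECK (log2 ratio -1.17, -2.30 spreads). RECK/4NQ over RECK was 0.85, short of 2-fold. A second probe set of PLXNA2 read 138 in RECK/4NQ, 76.6 in RECK and 212 in Zeo. The third, the dimmest, read 31.6 in RECK/4NQ, 43.5 in RECK and 34.3 in Zeo, and was highest in RECK.

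PLXNA4, a receptor for SEMA6A and SEMA6B, read 122 in RECK/4NQ and 48.4 in RECK, against 108 in Zeo. RECK was 2.23-fold below Zeo (-1.97 spreads) and RECK/4NQ 2.52-fold above RECK (2.51 spreads). All 4 probe sets of PLXNA4 were lower in RECK than in Zeo, at log2 ratios of -1.31 to -0.11. In RECK/4NQ over Zeo 2 of the 4 were above 0. Of the 4 in RECK over Zeo, the brightest and the one that read 37.6 in RECK/4NQ, 5.12 in RECK and 30.3 in Zeo passed 2-fold. PLXNA4 and SEMA6B were the members that stood apart as low on the RECK array by the rule that the other arrays differ by less than 1.5-fold.

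PLXNA1, which pairs with NRP1, read 3394 in RECK/4NQ, 2152 in RECK and 3365 in Zeo. It was lower in RECK by less than 2-fold (log2 ratio -0.64, -1.75 spreads), and its 3 probe sets were all lower in RECK than in Zeo, at -0.64 to -0.36. PLXNA3, which takes part in SEMA3F signalling, had another pattern, with 49.4 in RECK/4NQ, 81.3 in RECK and 81.2 in Zeo. The PLXNA3 probe sets did not share an order of lines: in RECK/4NQ over RECK 1 of 3 was above 0.

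**Figure D4:**
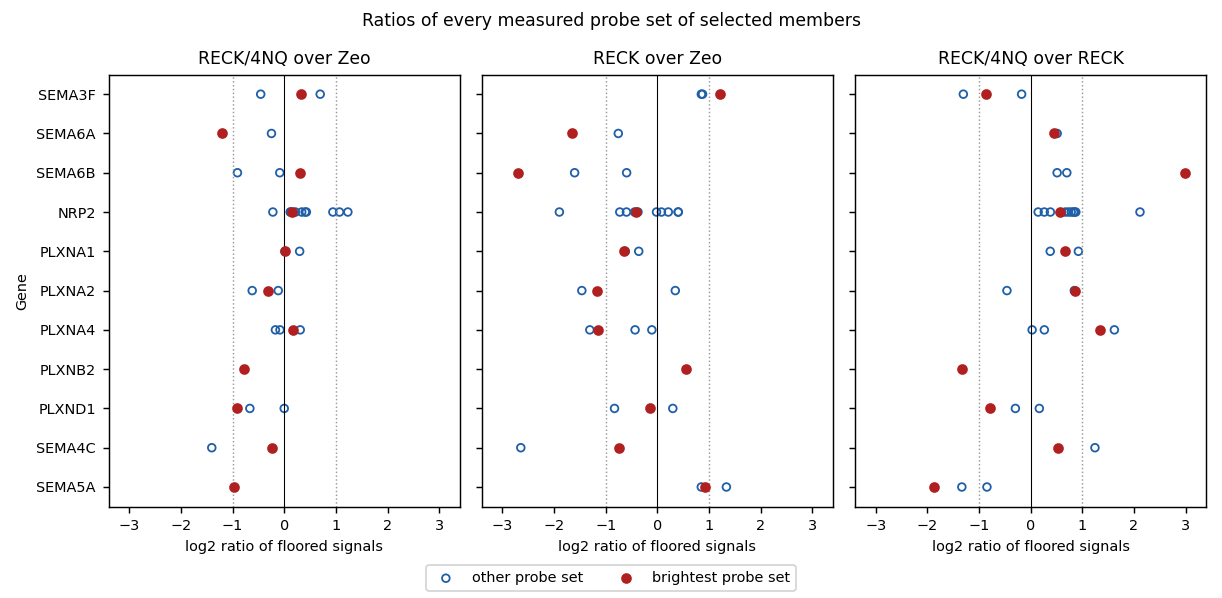
Log2 ratio of floored signals of every probe set at or above the floor on at least 1 of the arrays compared, for 11 members with several probe sets, in the 3 comparisons; filled points are the brightest probe set and open points the others. All 11 probe sets of NRP2 lie above 0 in RECK/4NQ over RECK, and those of SEMA6B and SEMA4C differ widely in size.

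Among type B plexins, receptors for class 4 ligands, PLXNB2 was called. PLXNB2, a receptor for SEMA4C, read 1165 in RECK/4NQ and 2931 in RECK, against 2001 in Zeo. RECK/4NQ was 2.52-fold below RECK (log2 ratio -1.33, -4.37 spreads) and below Zeo at -0.78 (-2.96 spreads), and RECK over Zeo was 0.55 (2.34 spreads). Its other probe set was below the floor on every array, so the PLXNB2 values rest on 1 probe set, of a design that may match several transcripts. PLXNB1, the receptor of SEMA4D, read 75.8 in RECK/4NQ, 49.7 in RECK and 78.1 in Zeo. PLXNB3, the receptor of SEMA5A, read 47.4 in RECK/4NQ, 73.7 in RECK and 55.1 in Zeo. Both stayed within 2-fold in all 3 comparisons.

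PLXND1, the receptor of SEMA3E, read 375 in RECK/4NQ, 646 in RECK and 712 in Zeo. RECK/4NQ over Zeo gave a log2 ratio of -0.92, short of 2-fold, at -2.46 spreads. Of the 3 probe sets of PLXND1, all were below 0 in that comparison, the least at -0.00043. PLXNC1, the receptor of SEMA7A, was near the floor, with 6.83 in RECK/4NQ, 12.6 in RECK and 13.6 in Zeo.

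Of the CRMPs, CRMP1 read higher in RECK than in both other lines. CRMP1 is known from SEMA3A signalling in neurons and as a suppressor of invasion in lung cancer cells. Its signal was 15.99 in RECK/4NQ and 139.8 in RECK, against 27.2 in Zeo. RECK was 5.14-fold above Zeo (log2 ratio 2.36, 4.19 spreads), and RECK/4NQ was 8.74-fold below RECK (-3.13, -4.50 spreads). RECK/4NQ was below Zeo by a log2 ratio of -0.77 (-0.83 spreads), which is within the spread of genes of that level. CRMP1 has 1 probe set, so no other probe set could be compared. Its RECK/4NQ signal was close to the floor, and at the 60th-percentile floor RECK/4NQ over RECK was -2.33.

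DPYSL2, also called CRMP2, which carries tubulin and relays SEMA3A signals, read 865 in RECK/4NQ, 776 in RECK and 526 in Zeo. It was higher in both transfected lines without passing 2-fold, at 0.72 (2.20 spreads) in RECK/4NQ over Zeo and 0.56 (2.16 spreads) in RECK over Zeo. DPYSL3, or CRMP4, which bundles actin, followed the same order with 339.8 in RECK/4NQ, 326 in RECK and 261 in Zeo. DPYSL4 read 30.4 in RECK/4NQ, 29.5 in RECK and 34.4 in Zeo, with other probe sets that disagreed in direction. DPYSL5, or CRMP5, read 4.27 in RECK/4NQ, 16.8 in RECK and 31.1 in Zeo. It was at least 2.54-fold lower in RECK/4NQ than in Zeo (-1.57 spreads). Its other probe set was below the floor on every array. The DPYSL5 call thus rests on 1 probe set, of a design that may match several transcripts.

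The called ratios were set beside the other probe sets of the same genes. In RECK over Zeo the 6 called genes had 10 other measured probe sets, of which 9 went the same way, 3 of them past 2-fold, and 1 went the other way. The 7 genes called in RECK/4NQ over RECK had 7 others, all in the same direction and 2 past 2-fold, but these belonged to 3 genes (PLXNA4, SEMA5A and SEMA6B). CRMP1, PLXNB2, SEMA3G and SEMA5B had no other measured probe set. The 3 called in RECK/4NQ over Zeo had 2 others, 1 in the same direction (SEMA6A) and 1 in the opposite one (SEMA4A). DPYSL5 had no other measured probe set. Genes beside the called ones on the chromosome were measured too. These were the 10 nearest genes whose mean level reached the floor, 5 on each side. Their median log2 ratio lay between -0.43 and -0.19 for the 6 genes called in RECK over Zeo. It lay between -0.11 and 0.21 for the 7 called in RECK/4NQ over RECK. For the 3 called in RECK/4NQ over Zeo it lay between -0.36 and 0.01. Medians of all genes at that level were -0.20, 0.06 and -0.12 in the same order of comparisons.

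Of the genes for proteins that work with this family, 46 with a probe set were listed: co-receptors and other receptors, other neuropilin ligands, plexin effectors with their GTPases, and proprotein convertases. For RECK/4NQ over Zeo 1 of the 46 was higher and 2 were lower, with a median log2 ratio of -0.05. In RECK over Zeo 3 were higher and 4 lower, with a median of -0.20. In RECK/4NQ over RECK 5 were higher and 5 lower, with a median of 0.03. Over all genes, 2.82% were higher and 7.14% lower in RECK/4NQ over Zeo. The shares were 4.03% and 6.71% in RECK over Zeo, and 4.48% and 5.77% in RECK/4NQ over RECK. Medians of all genes whose mean level reached the floor were -0.12, -0.20 and 0.06 in the same order. Most of these genes thus stayed within 2-fold in each comparison. Partner values below are those of the brightest probe set, as deposited. Partner calls were not followed under other scalings, other floors or other probe sets.

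Among other neuropilin ligands, VEGFA, the main growth factor of vessels, read 1631 in RECK/4NQ, 687 in RECK and 669 in Zeo. RECK/4NQ was 2.44-fold above Zeo and 2.37-fold above RECK, and VEGFA was the only one of these 4 ligands to pass. Among receptors, FLT1, a VEGF receptor, read 117 in RECK/4NQ, 37.1 in RECK and 68.6 in Zeo, and was 3.17-fold higher in RECK/4NQ than in RECK. MST1R, a receptor kinase that type B plexins bind, read 61.1 in RECK/4NQ, 24.8 in RECK and 57.8 in Zeo. It was low in RECK, 2.33-fold below Zeo, with RECK/4NQ 2.47-fold above RECK. L1CAM, an adhesion molecule that joins NRP1, read 10.8 in RECK/4NQ, 35.7 in RECK and 7.38 in Zeo, at least 2.92-fold higher in RECK than in Zeo. RECK/4NQ was at least 2.92-fold below RECK. ITGA1, an integrin chain, read 10.5 in RECK/4NQ, 25.7 in RECK and 26.4 in Zeo, at least 2.16-fold lower in RECK/4NQ than in Zeo and at least 2.10-fold lower than in RECK.

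Among effectors, FES, a tyrosine kinase that acts with type A plexins and CRMPs, read 83.3 in RECK/4NQ, 210.2 in RECK and 63.5 in Zeo. RECK was 3.31-fold above Zeo and RECK/4NQ 2.52-fold below RECK. MRAS, a small GTPase of the Ras family, had the same order, with 42.8 in RECK/4NQ, 118 in RECK and 45.5 in Zeo, 2.59-fold higher in RECK than in Zeo and 2.75-fold lower in RECK/4NQ than in RECK. RND3, a small GTPase that acts against RhoA, read 40.4 in RECK/4NQ, 136 in RECK and 87.5 in Zeo, 2.17-fold lower in RECK/4NQ than in Zeo and 3.36-fold lower than in RECK. These 3 effectors were highest in RECK.

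FARP1, a guanine nucleotide exchange factor of plexin A signalling, read 426 in RECK/4NQ, 179 in RECK and 364 in Zeo. It was 2.03-fold lower in RECK than in Zeo and 2.37-fold higher in RECK/4NQ than in RECK. ARHGEF12, an exchange factor for RhoA that binds type B plexins, read 98.3 in RECK/4NQ, 57.8 in RECK and 132 in Zeo, 2.28-fold lower in RECK than in Zeo. PCSK6, a convertase, a class of enzymes that cut class 3 semaphorins, read 36.3 in RECK/4NQ, 17.8 in RECK and 42.9 in Zeo, 2.41-fold lower in RECK than in Zeo and 2.04-fold higher in RECK/4NQ than in RECK. FARP1, ARHGEF12 and PCSK6 were lowest in RECK.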

How the data were processed

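Total RNA of 3 HT1080 lines was profiled on 3 Affymetrix arrays, 1 per line. The deposited values are intensities on a linear scale, made with MAS5 per the submitters' processing notes. The sources used here give no version, scaling target or genome build. They were used without rescaling. Of 54675 probe sets, 62 were controls, 41091 carried a single symbol in the annotation of the platform, 1801 carried several and 11721 were unnamed here. Each gene took its probe set with the highest mean log2 signal. All 36 members matched the RefSeq gene table. Log2 ratios were taken from the deposited intensities, with values under the floor raised to it. Every member at or above the floor on at least 1 array is named, with full values for those past 2-fold in any comparison, and listed partners are named if past 2-fold. The members and gene lists were chosen with earlier results of these data known. Alternatives were quantile normalization, median centring, floors at the 60th and 80th percentiles, the mean of all probe sets, and leaving out shared probe sets. Shared here means a name ending in _s_at or _x_at, a design that may match several transcripts, of the same gene or of others. The scripts were tested on simulated data. Promoters are RefSeq's, build GRCh38.p14. Calculations used Python 3.11.15, numpy 2.4.6 and pandas 2.3.3. The number of arrays limits the precision. No batch labels are given, so array, line and any batch cannot be told apart.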

Additional observations from a re-analysis of the deposited data

Results flagged for a closer look

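All 7 members called in RECK/4NQ over RECK lay on opposite sides of Zeo in the RECK/4NQ and RECK lines. Their log2 ratio of RECK/4NQ over RECK was -3.13 for CRMP1, 1.33 for PLXNA4, -1.33 for PLXNB2, -1.01 for SEMA3G, -1.88 for SEMA5A, -1.04 for SEMA5B and 2.99 for SEMA6B. CRMP1, PLXNB2, SEMA3G, SEMA5A and SEMA5B were above Zeo in RECK and below it in RECK/4NQ, whereas PLXNA4 and SEMA6B were below Zeo in RECK and above it in RECK/4NQ. SEMA3G was above Zeo in RECK by a log2 ratio of only 0.01, and SEMA5B by 0.17. In RECK/4NQ over Zeo, PLXNA4 was at 0.18 and SEMA6B at 0.30, so both were low in RECK with RECK/4NQ within 1.5-fold of Zeo. Genes called for a gap between RECK/4NQ and RECK tend, by that choice, to have Zeo between them. The share of all called genes with Zeo between was not computed. Over all probe sets, 1 of 3 for SEMA6B and 2 of 4 for PLXNA4 were above Zeo in RECK/4NQ. With 1 array per line these differences were not tested.

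A probe set annotated to both SEMA3B and the microRNA gene MIR6872, and so left out of the comparisons, read 46.1 in RECK/4NQ, 58.7 in RECK and 48.7 in Zeo, above the floor on every array, while the probe set of SEMA3B alone was below it on all 3.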

How the results depend on the processing

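No paired analysis was possible because each line has 1 array. No member's call changed direction under the 6 alternatives, but none of the 16 calls was kept under all 6. A raised floor cannot reverse a ratio. The probe-set alternatives cannot alter CRMP1, SEMA3G or SEMA5B, which have 1 probe set each. The lack of a reversal is therefore of little weight. CRMP1 and SEMA6B were kept under 5 of 6 in both comparisons and lost at the 80th-percentile floor of 95.5, which lies above at least 1 signal of each. The sizes moved too: SEMA6B in RECK/4NQ over RECK was 1.40 with the mean of probe sets, against 2.99, and CRMP1 was -2.33 at the 60th-percentile floor, against -3.13. SEMA3F was kept under 5 of 6 in RECK over Zeo and missed 2-fold at 0.97 with the mean of all probe sets. PLXNA2, PLXNB2, SEMA3G, SEMA5A and SEMA5B were kept under 4 of 6, and PLXNA4 under 4 of 6 in RECK/4NQ over RECK and 3 of 6 in RECK over Zeo. SEMA6A was kept under 3 of 6 in RECK/4NQ over Zeo and 4 of 6 in RECK over Zeo, DPYSL5 under 2 and SEMA4A under 1. PLXNB2 has no call without shared probe sets, since its remaining probe set is below the floor.

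In RECK/4NQ over Zeo, lower members numbered 1 with median centring, 1 at the 60th-percentile floor, 0 at the 80th and 0 with the mean of probe sets. The members' median was -0.0007 with centring and -0.62 without shared probe sets. The latter is over 21 members, since 29 of the 36 have a probe set left and 21 of these reach the floor, so the genes differ too. In RECK over Zeo, higher members numbered 4 with quantile normalization, 4 with centring and 1 at the 80th-percentile floor, and lower ones 2 with centring, 1 at the 80th-percentile floor and 2 with the mean of probe sets, where SEMA6B was kept and SEMA4C (-1.70) gained. SEMA5A (1.03) was gained as higher there. The median was -0.031 with quantile normalization and -0.033 with centring. SEMA3C (1.04 and 1.03) and SEMA5A (1.10 and 1.10) were the genes gained as higher under these scalings. In RECK/4NQ over RECK, higher members numbered 0 at the 80th-percentile floor and 1 with the mean of probe sets, lower ones 2 at the 60th-percentile floor and 1 at the 80th, and the median was 0.052 at the 60th-percentile floor and 0.056 at the 80th. SEMA3F became lower there under quantile normalization (-1.04).

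Scaling moved the split of calls over all genes. In RECK over Zeo 37.5% of called genes were higher as deposited, 53.8% after quantile normalization and 54.2% after centring, and in RECK/4NQ over Zeo 28.3%, 45.9% and 50.9%. Counts over all genes moved too. RECK/4NQ over Zeo had 558 higher and 1411 lower genes as deposited, 779 and 917 with quantile normalization, 882 and 852 with centring, 167 and 456 at the 60th-percentile floor, 52 and 93 at the 80th, and 326 and 791 with the mean of probe sets. RECK over Zeo had 797 higher and 1327 lower as deposited, 328 and 526 at the 60th-percentile floor, 109 and 172 at the 80th, and 531 and 789 with the mean of probe sets. RECK/4NQ over RECK had 886 higher and 1141 lower as deposited, 382 and 469 at the 60th-percentile floor, 184 and 167 at the 80th, and 507 and 713 with the mean of probe sets. Centring moved the median of all genes in RECK/4NQ over Zeo to 0.10, against -0.12 as deposited. The calls on DPYSL5, SEMA3G, SEMA4A, SEMA5A and SEMA5B were lost at both raised floors. That on SEMA4A was also lost under both scalings and with the mean of all probe sets. That on DPYSL5 was also lost with this mean and without shared probe sets. Causes of the lost calls were not tested.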
